A study of Mus musculus with 30 samples.

Results

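The 9 genes described here are liver genes whose expression is known to follow the pattern of growth hormone secretion, measured in diabetic db/db mice fed sebacic acid. They were chosen by gene symbol and by that known dependence, with earlier results of these data known. Cyp2d9, Hsd3b5, Slco1a1, Elovl3, Selenbp2 and Cyp7b1 have a male pattern, and Cyp2b9, Cyp2b13 and Cyp2a4 a female pattern. Of these 9 genes, 8 had a probe on the array, out of 16593 genes with a probe, and each had 1 probe. The probes of 6 members were detected, out of 7905 detected genes, and all 6 were detected in every one of the 30 livers. Hsd3b5 and Slco1a1 were detected in no liver. No probe was annotated to Cyp2a4, so it was not measured here.

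The mice were males of the db/db strain BKS.Cg-m+/+Leprdb/J, aged 6 to 8 weeks before a habituation period that preceded the diets. Both groups carry the same homozygous leptin receptor mutation, so no lean or leptin-responsive mice served as a reference. The control group (Ctrl, n = 15) received chow alone. The treated group (SA_15%, n = 15) received chow with sebacic acid, a dicarboxylic fatty acid, at 77.6 g/kg food for 6 weeks, which supplied 15% of dietary energy. Each liver was hybridised to its own Illumina MouseRef-8 array, on which a probe's signal is the mean brightness of its beads. Signals are given on the log2 scale after quantile normalisation, and a probe counted as detected when 15 or more of the 30 arrays gave it a detection p-value under 0.05.

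Growth hormone leaves the pituitary in pulses in male rodents and in a more continuous manner in females. In hepatocytes it binds its receptor, activates the kinase JAK2 and sends STAT5b to the nucleus. Pulses favour male-pattern genes, many of them cytochrome P450 enzymes and pheromone-binding proteins. Continuous exposure, or loss of STAT5b in male liver, favours female-pattern genes, among them several Cyp2a and Cyp2b enzymes.

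The promoters of Cyp2b9 and Cyp2b13 are shown because these neighbouring genes were the measured female-pattern members. The windows come from RefSeq (assembly GRCm38.p6), where 7 of the 9 members had an entry, and run from 250 bases before to 50 after the gene start. Both lie on the plus strand of chromosome 7, at chr7:26173159-26173458 for Cyp2b9 and chr7:26061245-26061544 for Cyp2b13. Capitals mark the only bases that differ.
Cyp2b9: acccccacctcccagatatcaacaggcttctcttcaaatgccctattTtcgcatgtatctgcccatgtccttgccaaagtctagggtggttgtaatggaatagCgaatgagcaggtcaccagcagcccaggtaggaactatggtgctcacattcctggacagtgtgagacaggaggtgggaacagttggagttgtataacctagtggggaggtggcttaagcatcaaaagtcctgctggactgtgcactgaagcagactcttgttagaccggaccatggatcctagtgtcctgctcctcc
Cyp2b13: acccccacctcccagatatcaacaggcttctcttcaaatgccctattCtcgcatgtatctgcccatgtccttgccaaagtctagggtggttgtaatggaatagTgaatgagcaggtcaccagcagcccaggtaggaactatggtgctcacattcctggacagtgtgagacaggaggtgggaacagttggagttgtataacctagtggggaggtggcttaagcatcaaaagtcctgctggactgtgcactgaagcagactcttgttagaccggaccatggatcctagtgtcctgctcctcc
Over 300 bases the windows differed at 2 positions, T48C and C104T, which give the Cyp2b9 base, the position counted from the first printed base and the Cyp2b13 base. They were 99.3% identical. The palindromic motif TTCNNNGAA, which STAT5 proteins can bind, was present in none of the 7 member windows and in 8.3% of all 32851 windows (2726). A window without these letters says nothing about sites elsewhere.

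Of the male-pattern members, Cyp2d9, Cyp7b1 and Selenbp2 fell in SA_15% livers, and both measured female-pattern members rose. Of the 4 detected male-pattern members, 3 were lower and none was higher (limma, adjusted p under 0.05). Among all 11329 detected probes, 19.4% were lower and 17.1% were higher, 36.6% in either direction. The 2 detected female-pattern members were both higher. The median log2 difference was -0.28 over the detected male-pattern members and 0.77 over the female-pattern members, against -0.01 over all detected probes. In whole liver, fewer cells of a type and less RNA per cell cannot be told apart.

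**Figure D1:**
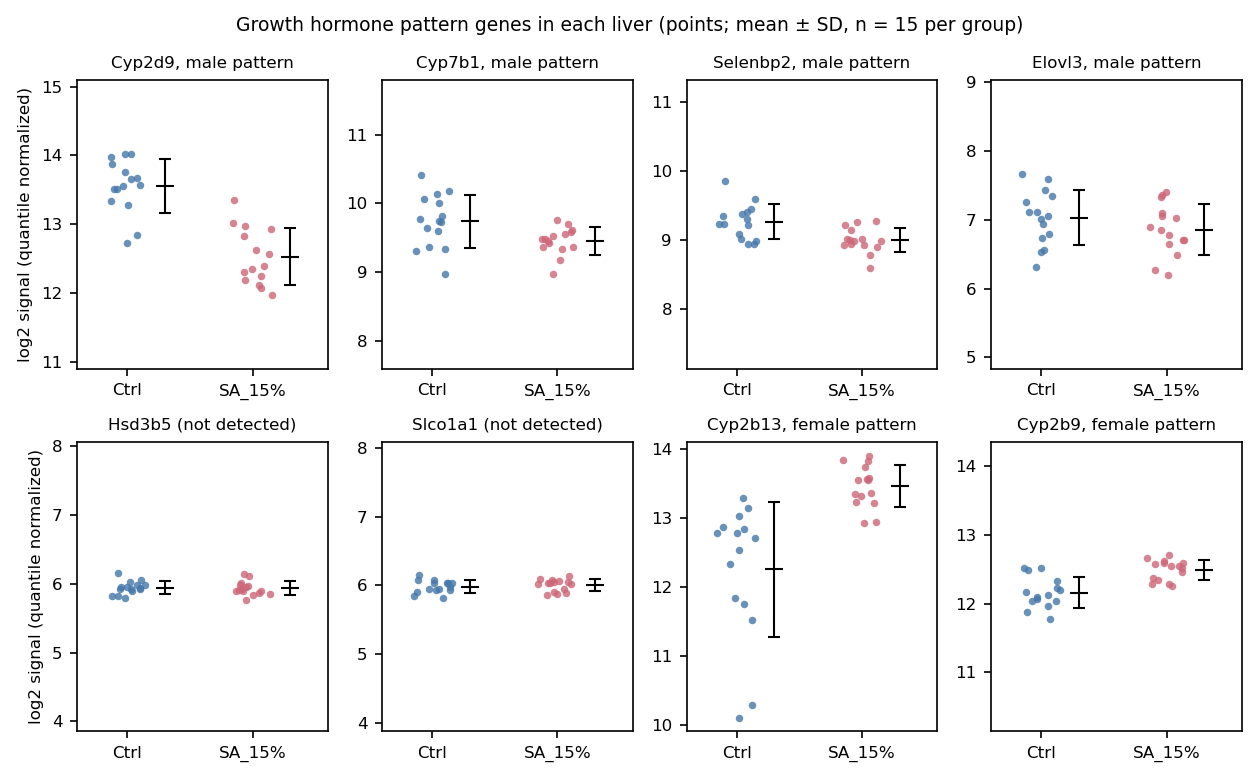
Log2 signal (vertical axis, quantile normalised) of the 8 members with a probe in each liver of the Ctrl and SA_15% groups; points are livers and bars give mean ± SD (n = 15), and every panel spans the same number of log2 units. Cyp2d9 is lower and Cyp2b13 higher in SA_15% livers, with Ctrl signals of Cyp2b13 from 10.1 to 13.3, while Hsd3b5 and Slco1a1 lie flat at background.

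Cyp2d9, a cytochrome P450 that hydroxylates testosterone, showed the largest decrease among the members. Its log2 signal in Ctrl livers had a lowest value of 12.73, a median of 13.57 and a highest value of 14.02. In SA_15% livers the corresponding values were 11.97, 12.39 and 13.35. The groups overlapped, but 10 SA_15% livers lay below the lowest Ctrl liver and all 15 lay below the Ctrl median. The mean log2 signal fell by 1.02 (standard error 0.135), from 13.55 ± 0.386 (SD, n = 15) to 12.53 ± 0.412 (SD, n = 15). This is a fold of 0.492 (95% interval 0.407 to 0.595, limma adjusted p = 5.6e-07). By size of difference, the Cyp2d9 probe ranked 33 of 11329.

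Cyp7b1, which hydroxylates oxysterols and some steroids, was also lower in SA_15% livers. The lowest, median and highest Ctrl signals were 8.979, 9.741 and 10.42. In SA_15% livers they were 8.973, 9.475 and 9.757. The ranges had nearly the same floor, but 7 Ctrl livers lay above the highest SA_15% liver and 14 SA_15% livers lay below the Ctrl median. The mean fell by 0.29 (standard error 0.105), from 9.74 ± 0.387 to 9.45 ± 0.197 (SD, n = 15 each), a fold of 0.819 (limma adjusted p = 0.0292). This call was lost without any one of Ctrl replicates 4, 6 and 10 or SA_15% replicate 13 (highest limma adjusted p = 0.0539).

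Selenbp2, a selenium-binding protein gene, also fell. Ctrl signals had a lowest value of 8.939, a median of 9.233 and a highest value of 9.858. The SA_15% values were 8.59, 8.991 and 9.281. The groups overlapped, with 13 SA_15% livers below the Ctrl median and 5 below every Ctrl liver. The difference was -0.27 (standard error 0.0762, limma adjusted p = 0.00632), a fold of 0.831 (95% interval 0.746 to 0.925).

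Elovl3, an elongase of very long chain fatty acids, did not pass the test. Its signals ran from 6.325 to 7.67 in Ctrl livers (median 7.056) and from 6.202 to 7.411 in SA_15% livers (median 6.848). The groups overlapped over most of their range, and 10 SA_15% livers lay below the Ctrl median. The difference was -0.18 (95% interval -0.44 to 0.08, limma adjusted p = 0.287), so a decrease of the size seen for Selenbp2 and Cyp7b1 lies within its interval. With background correction (neqc) the difference was -0.28.

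Hsd3b5, a ketosteroid reductase, and Slco1a1, an organic anion transporter of the hepatocyte membrane, gave no signal above the negative controls. The Hsd3b5 probe had a mean of 5.945 ± 0.0952 in Ctrl livers and 5.936 ± 0.101 in SA_15% livers (SD, n = 15 each). The Slco1a1 probe had means of 5.98 ± 0.0927 and 6.00 ± 0.087. These are background values in both groups, and no fold is given. Whether the transcripts were scarce or these probes did not report them was not tested.

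Cyp2b13, a female-pattern cytochrome P450, showed the largest increase among the members. Ctrl signals ranged from 10.1 to 13.3 with a median of 12.71. SA_15% signals ranged from 12.93 to 13.91 with a median of 13.55. The SA_15% livers formed a narrow group, with 11 of them above every Ctrl liver, and 12 Ctrl livers lay below every SA_15% liver. Ctrl replicates 4 and 5 were far below the others of their group, at 10.28 and 10.10. The mean rose by 1.21 (standard error 0.245), from 12.25 ± 0.985 to 13.46 ± 0.304 (SD, n = 15 each), a fold of 2.31 (95% interval 1.64 to 3.27, limma adjusted p = 2.4e-04). The difference between the group medians was 0.85, and leaving out each liver in turn gave 1.06 to 1.28. The probe ranked 23 of 11329 by size of difference.

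Cyp2b9, the neighbouring female-pattern P450, was higher as well. The lowest, median and highest Ctrl signals were 11.78, 12.12 and 12.52. The SA_15% values were 12.26, 12.54 and 12.71. All 15 SA_15% livers lay above the Ctrl median, 8 of them above every Ctrl liver. The mean rose by 0.33 (standard error 0.0668), from 12.16 ± 0.226 to 12.49 ± 0.149 (SD, n = 15 each), a fold of 1.26 (95% interval 1.14 to 1.38, limma adjusted p = 2.5e-04). With each array centred on its median the difference was 0.20 and did not pass (limma adjusted p = 0.0548). Whether the Cyp2b9 probe also binds Cyp2b13 transcripts was not tested.

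**Figure D2:**
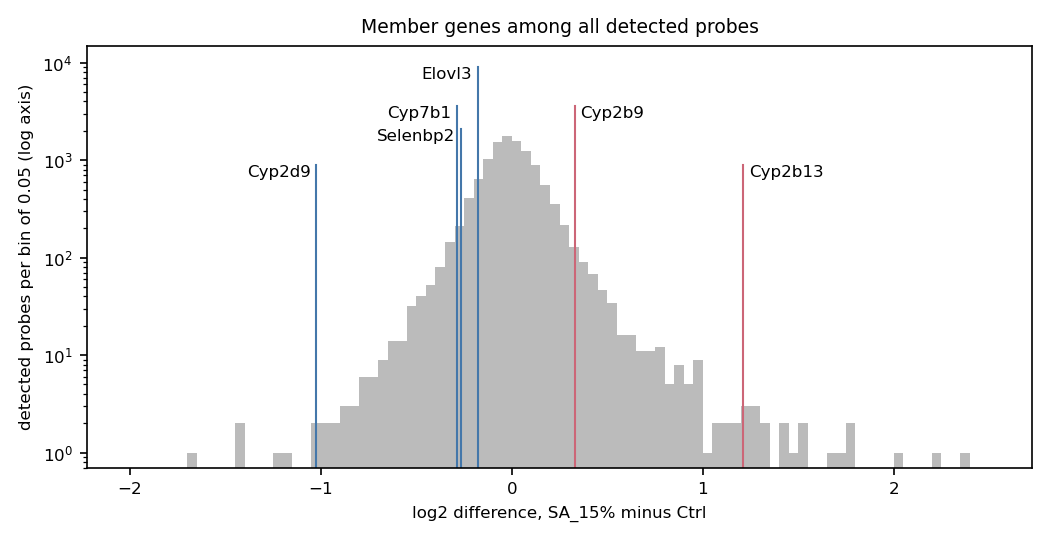
Histogram of the log2 difference, SA_15% minus Ctrl, of all 11329 detected probes (horizontal axis; number of probes per bin on a log axis), with a line at each detected member. Cyp2d9 at -1.02 and Cyp2b13 at 1.21 stand in the thin tails, whereas Elovl3, Selenbp2, Cyp7b1 and Cyp2b9 lie in the shoulders.

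The spread between mice was also compared. The SD in Ctrl livers was 3.24 times that in SA_15% livers for Cyp2b13 and 1.97 times for Cyp7b1. A limma test on absolute deviations from the group median gave unadjusted p = 0.0327 (adjusted p = 0.913) for Cyp2b13 and unadjusted p = 0.0238 (adjusted p = 0.86) for Cyp7b1. No member passed this test, and 0.0794% of all detected probes did (9). At an unadjusted p under 0.05, 3.51% of all detected probes had a smaller spread in SA_15% livers.

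Signals of the detected members were compared from mouse to mouse. For each group, 15 pairs of detected members were correlated over its 15 mice, and p-values were adjusted over the 30 correlations. In Ctrl livers Cyp2b13 was lower where Cyp2d9 was higher, with Pearson r = -0.69 (permutation p = 0.00629, adjusted p = 0.0943) and Spearman rho = -0.77 (permutation p = 0.00126, adjusted p = 0.027). Without the 2 mice farthest from the Cyp2d9 median, r was -0.81 (permutation p = 4.6e-04, adjusted p = 0.0138). The mice left out were Ctrl replicates 7 and 9 (Cyp2d9 signals 12.73 and 12.84), so the mice lowest in Cyp2b13 stayed in. Ctrl replicates 4 and 5, lowest in Cyp2b13, had Cyp2d9 signals of 14.02 and 13.98, at the top of the Ctrl range. In SA_15% livers the same pair gave r = -0.35 (permutation p = 0.204, adjusted p = 0.613).

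Signals of Cyp2b9 and Cyp2b13 ran together across SA_15% mice, with r = 0.77 (permutation p = 7.8e-04, adjusted p = 0.0234) and rho = 0.75 (permutation p = 0.0018, adjusted p = 0.027). Without the 2 mice farthest from the Cyp2b9 median, r was 0.76 (permutation p = 0.00291, adjusted p = 0.0436). In Ctrl livers this pair gave r = 0.12 (permutation p = 0.671, adjusted p = 0.927). Whether either relation differed between the groups was not tested. Cross-binding between the Cyp2b9 and Cyp2b13 probes was not tested either, so their signals may not be separate results. Cyp2d9 and Elovl3, both of male pattern, gave r = 0.63 in Ctrl livers (permutation p = 0.0111, adjusted p = 0.111) and -0.02 in SA_15% livers (permutation p = 0.934, adjusted p = 0.978). The Ctrl value fell to 0.45 without the 2 mice farthest from the Cyp2d9 median (permutation p = 0.128, adjusted p = 0.484), so it rested in part on them.

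**Figure D3:**
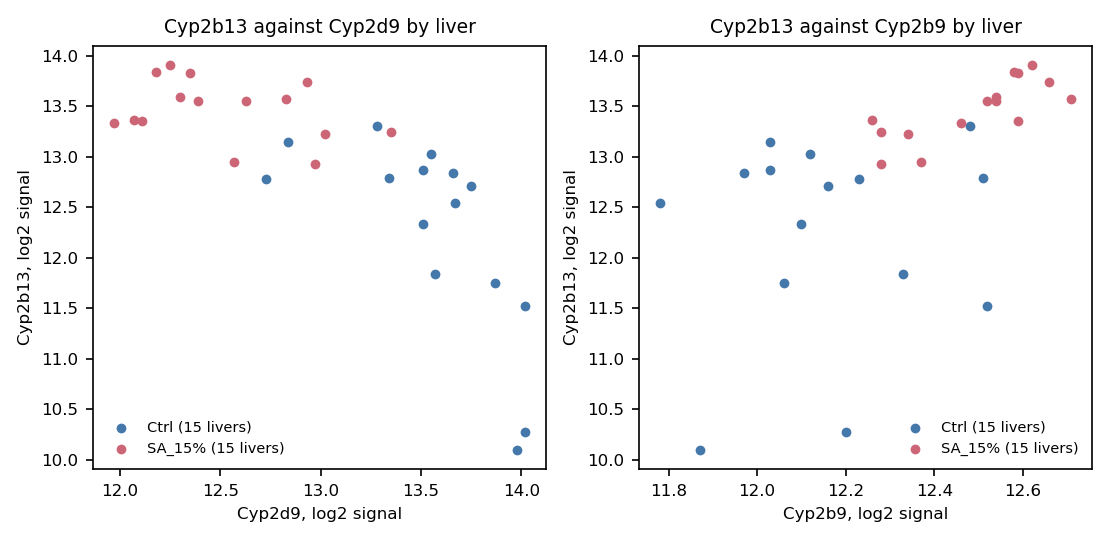
Log2 signal of Cyp2b13 (vertical axes) against Cyp2d9 (left) and Cyp2b9 (right), 1 point per liver, with 15 Ctrl and 15 SA_15% livers. On the left the Ctrl points fall from upper left to lower right (r = -0.69), and on the right the SA_15% points rise together (r = 0.77) while the Ctrl points scatter (r = 0.12).

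The genes most like each member were ranked by Pearson r over the 30 mice after the group means were taken off, as a description of these arrays. All genes of a mouse were read from the same array, so part of any r can come from the array. For Cyp2b13 the nearest was Cyp2b23, a gene of the same cluster (r = 0.77), followed by the galactose enzyme Galt (0.67) and the apolipoprotein Apoa5 (0.65). For Galt, rho was 0.44, with r = 0.74 in Ctrl and 0.39 in SA_15% livers, whereas Cyp2b23 gave r = 0.81 and 0.80. For Cyp2b9 they were the acyl-CoA thioesterase Acot3 (0.70), 2610507B11Rik (0.68) and Ogfod2 (0.68). The ranking for Cyp2d9 was headed by Gm4956 (0.59), Cox19 (0.57, with 0.75 in Ctrl and 0.33 in SA_15% livers) and Omd (0.57). Elovl3 was nearest to the lipid droplet gene Plin5 (0.77), the cell cycle inhibitor Cdkn1a (0.75) and Lrfn3 (0.75). Selenbp2 was nearest to Nat8f1 (0.82), Mpv17l (0.81) and the cholesterol synthesis enzyme Dhcr7 (0.79), and Cyp7b1 to Csrp2 (0.76), Fnip1 (0.75) and Xkr9 (0.74).

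Other genes with a male pattern in mouse liver mostly fell as well. Of 23 listed, 19 had a probe and 17 were detected. Among these, 12 were lower, 2 were higher and 3 did not pass, with a median log2 difference of -0.39 (all detected probes, 19.4% lower and 17.1% higher, median -0.01). This list and those below were chosen with earlier results of these data known, so their counts are descriptive only. Each gene was counted at its brightest probe, whereas the shares beside the counts are over all detected probes. The pheromone-binding major urinary protein Mup20 fell from a mean log2 signal of 11.24 ± 0.47 to 10.04 ± 0.322 (SD, n = 15 each; standard error of the difference 0.136, limma adjusted p = 4.6e-08). Mup5 fell by 0.98 at its brightest probe (-0.54 as the mean of its detected probes), while another, near background, differed by -0.09 and did not pass (limma adjusted p = 0.13) and the last was detected in no liver. Mup2 fell by 0.22. Mup genes are near-identical copies, and the probes may bind several of them, so the Mup genes counted as lower may not be separate results. The fatty acid hydroxylase Cyp4a12b fell by 1.66 (standard error 0.28, limma adjusted p = 2.6e-05), and the complement component C6 by 0.64. The related Cyp4a12a, brighter with a Ctrl mean of 13.3 against 9.71 for Cyp4a12b, differed by 0.19 and did not pass (limma adjusted p = 0.14). The glutathione transferase Gstp1 went the other way and rose by 0.78 (standard error 0.108, limma adjusted p = 1.3e-06), with 14 SA_15% livers above every Ctrl liver. Another Gstp1 probe was higher by 0.695, and a dimmer one differed by 0.17 and did not pass (limma adjusted p = 0.0982).

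Other female-pattern genes were called in both directions. Of 29 listed, 20 had a probe and 10 were detected. Of these, 4 were lower, 2 were higher and the other 4 missed the threshold, with a median of -0.09 (all detected probes, 19.4% lower and 17.1% higher, median -0.01). The antimicrobial peptide gene Defb1 rose by 0.41 (limma adjusted p = 1.6e-05) and the peroxisomal transporter Abcd2 by 0.28 (limma adjusted p = 0.0148). Cyp2b10, a drug-inducible P450, fell by 0.78 (standard error 0.203, limma adjusted p = 0.00318). The steroid hydroxylase Cyp17a1 fell by 0.77 (standard error 0.183, limma adjusted p = 0.0014). The oestrogen sulfotransferase Sult1e1 fell by 0.42 and the neurotrophin receptor Ntrk2 by 0.34. The signals of Defb1, Abcd2, Sult1e1 and Ntrk2 are dim, whereas Cyp2b10 and Cyp17a1 had Ctrl means of 9.72 and 10.92. The Defb1 probe was detected in 7 Ctrl and 15 SA_15% livers. After neqc the differences were 0.78 for Defb1, 0.48 for Abcd2, -0.64 for Sult1e1 and -0.59 for Ntrk2.

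**Figure D4:**
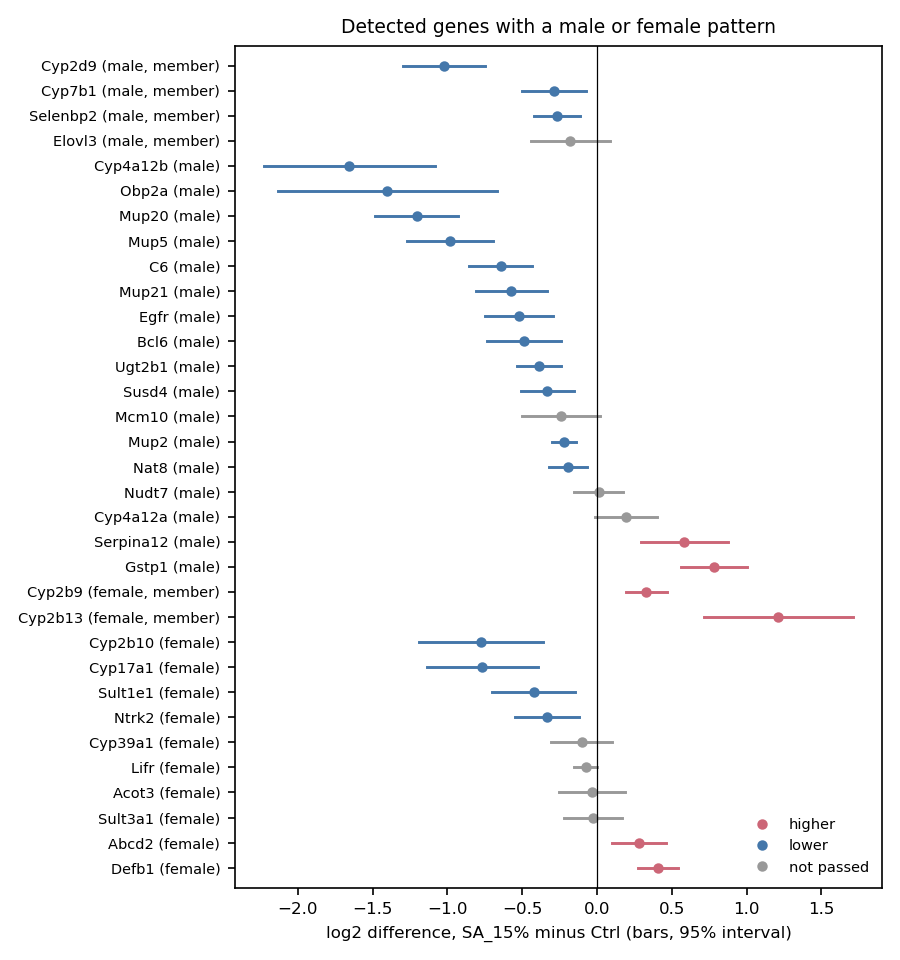
Log2 difference, SA_15% minus Ctrl (horizontal axis), of each detected male-pattern or female-pattern gene at its brightest probe, with 95% intervals; colour gives the limma call at an adjusted p under 0.05. Of the detected male-pattern genes that are not members, 12 were called lower and 2 higher. Of the female-pattern genes that are not members, 4 were called lower and 2 higher. The shares over all detected probes were 19.4% lower and 17.1% higher.

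Of the growth hormone signalling genes, 24 of 31 were detected, 7 were lower, 2 were higher and 15 did not pass (median -0.09). Among all detected probes 19.4% were lower and 17.1% higher, 36.6% in either direction, so the share of signalling genes called was near that of all probes. The growth hormone receptor Ghr differed by -0.12 at its brightest probe (limma adjusted p = 0.118) and was lower, with a difference of -0.22, at its other probe (limma adjusted p = 0.00295). The mean of both probes was lower (-0.17, limma adjusted p = 0.00113), and so was the brightest probe with median centring (-0.25, limma adjusted p = 0.0287) and with a residual component as covariate (limma adjusted p = 0.0406). Jak2, the receptor's kinase, differed by 0.09 (limma adjusted p = 0.062) and Stat5a by 0.12 (limma adjusted p = 0.108). The probes of Stat5b and of the liver factor Onecut1 were not detected. Socs2 and Cish, feedback inhibitors that growth hormone induces through STAT5, differed by -0.09 (limma adjusted p = 0.60) and 0.04 (limma adjusted p = 0.82; -0.01 with median centring).

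Among the called genes of this list, Igf1, the growth factor made by liver in response to growth hormone, fell by 0.19 (standard error 0.0651, limma adjusted p = 0.0201; -0.33 with median centring). Its binding proteins divided, as Igfbp2 fell by 1.01 (standard error 0.17, limma adjusted p = 2.2e-05), Igfbp1 fell by 0.34 and Igfbp3 rose by 0.22 (-0.57 and 0.40 after neqc). Hnf4a, a hepatocyte transcription factor needed by many male-pattern genes, fell by 0.29 (standard error 0.0547, limma adjusted p = 8.7e-05). Bcl6, a repressor that can bind STAT5 sites, is not of this list and was counted above among the other male-pattern genes. It fell by 0.49 (standard error 0.121, limma adjusted p = 0.00193), from 10.40 ± 0.392 to 9.91 ± 0.318 (SD, n = 15 each). The xenobiotic receptor Nr1i2 fell by 0.15 (-0.26 with median centring).

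Near paralogs were examined because their transcripts may bind a member's probe; probe sequences were not used here and cross-binding was not tested. Of 38 listed paralogs, 25 were detected, with 5 higher, 10 lower and 10 not passing (median -0.09; all detected probes, 17.1% higher and 19.4% lower). In the Cyp2a and Cyp2b cluster, whose gene order is Cyp2b10, Cyp2b13, Cyp2b9, Cyp2a4, Cyp2b23, Cyp2b19, Cyp2g1, Cyp2a5, Cyp2a22 and Cyp2a12, the detected genes differed in direction. Cyp2b10 fell, and Cyp2b23 rose by 0.70 (standard error 0.131, limma adjusted p = 9.2e-05), from 10.81 ± 0.449 to 11.51 ± 0.309 (SD, n = 15 each). Cyp2a5, the coumarin hydroxylase closest to the unmeasured Cyp2a4, rose at all 4 of its probes, by 0.21 at the brightest and by 0.42, 0.52 and 0.60 at the others. The brightest Cyp2a5 probe did not pass with median centring (0.15, limma adjusted p = 0.0933). Cyp2a12 differed by 0.08 and Cyp2g1 by -0.09, and neither passed. Whether any Cyp2a5 probe also reports Cyp2a4 was not tested.

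**Figure D5:**
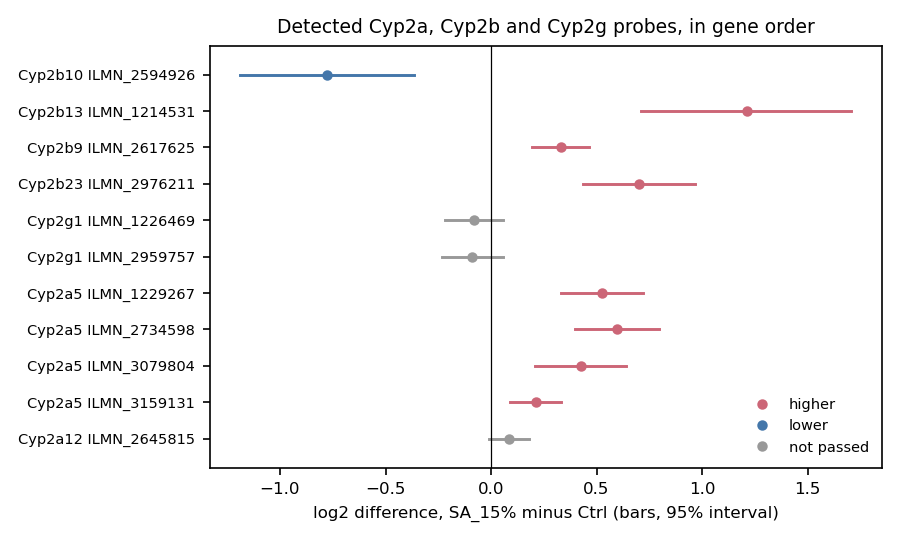
Log2 difference, SA_15% minus Ctrl (horizontal axis), with 95% intervals, of every detected probe of the Cyp2a, Cyp2b and Cyp2g genes of one cluster, ordered by gene; colour gives the limma call. Cyp2b10 lies at -0.78, and Cyp2b13, Cyp2b9, Cyp2b23 and all 4 Cyp2a5 probes lie above 0.

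The relatives of the male-pattern members differed in direction too. Cyp2d13 fell by 0.40 and Cyp2d10 by 0.25 (limma adjusted p = 1.4e-05). Cyp2d26 fell by 0.13 at its brightest probe and was higher at its 2 other probes (0.19 and 0.20), so its probes disagreed. Cyp2d12, Cyp2d22 and Cyp2d40 differed by 0.07 or less and did not pass, and their sign turned with median centring. Hsd3b2, a hydroxysteroid dehydrogenase, fell by 0.45 (standard error 0.0756, limma adjusted p = 2.3e-05), with 14 SA_15% livers below every Ctrl liver, and Hsd3b7, an enzyme of bile acid synthesis, rose by 0.23 (0.13 and no call with median centring). Among the organic anion transporters Slco2a1 fell by 0.39, Slco2b1 by 0.22 and Slco1a4 by 0.45, the last with limma adjusted p = 0.0388 and no call under 3 alternative settings or without any one of 12 livers, and Slco1b2 differed by 0.18 and did not pass.

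Of the other elongases, Elovl1 rose by 0.36 and Elovl5 by 0.26 (0.16 and no call with median centring), Elovl2 fell by 0.35, and Elovl6, which makes long chain from shorter fatty acids, differed by 0.39 without passing (limma adjusted p = 0.142). Selenbp1 differed by -0.08 and did not pass (-0.22 and lower with median centring, limma adjusted p = 0.0301). Among the enzymes of bile acid synthesis, Cyp8b1 fell by 0.70 (standard error 0.146, limma adjusted p = 3.2e-04), from 13.22 ± 0.281 to 12.52 ± 0.54 (SD, n = 15 each). Cyp7a1, its rate-limiting enzyme, varied widely and differed by -0.62 (limma adjusted p = 0.112). Cyp27a1 differed by -0.14 at its brightest probe without passing and was lower at both other probes (-0.33 and -0.34).

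Arrays and cell type markers were compared between the groups. Mean array intensity ran from 314 to 451 in Ctrl and from 327 to 498 in SA_15%, with 10984 to 11697 and 11213 to 11783 probes detected. Within a group, 2 arrays correlated at 0.988 to 0.996. Of 9 detected hepatocyte markers 1 was higher and 4 were lower, and their summed signal on the linear scale ran from 174036 to 187004 in Ctrl and from 175312 to 191406 in SA_15% livers. The probes for the hepatocyte markers Alb, Tat and Fgb did not pass the detection filter. The Alb probe was detected in 12 Ctrl and 2 SA_15% livers (-0.34 without the filter, limma adjusted p = 3.7e-05), the Tat probe in 2 and 0 (-0.36, limma adjusted p = 3.5e-06) and the Fgb probe in none. Albumin is abundant in liver, so a dim probe on this array need not mean a scarce transcript. Of 11 detected Kupffer cell and macrophage markers 5 were higher and none was lower (summed 1151 to 2887 against 1567 to 3406). Higher too were 4 of 10 endothelial markers (3500 to 4902 against 4083 to 5768) and 3 of 4 red blood cell markers (6004 to 13189 against 11727 to 21850). Marker counts take the brightest probe of each gene. Among all detected probes, 17.1% were higher and 19.4% were lower. Another probe of the endothelial marker Pecam1 was lower (-0.15, limma adjusted p = 0.0179), and further detected probes of Clec4f, Lyz2 and Fcgr2b did not pass. None of 5 detected stellate cell markers passed the test, and none of the 4 cholangiocyte markers with a probe was detected. Their part in the results for the growth hormone pattern genes was not tested.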

How the data were processed

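Liver RNA of 15 Ctrl and 15 SA_15% mice was measured on Illumina MouseRef-8 v1.1 arrays, 1 mouse per array. The authors deposited the mean intensity of 25697 probes per array, neither normalised nor background corrected, and a detection p-value per probe; the submitters' processing notes name GenomeStudio 2009.2. A second deposited table of quantile normalised intensity served as an alternative. The treatment field of the labels is the same for both groups, so groups were taken from the sample titles, which match the agent field.

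Intensities were quantile normalised and log2 transformed. Detected probes (11329) were compared with limma 3.58.1 (R 4.3.3; lmFit, eBayes, Benjamini-Hochberg adjustment). The ANOVA with global error assessment of the methods was run in approximate form as an alternative, named pooled error. Correlations had two-sided permutation tests with 100000 resamples. Code was tested on simulated data. The number of arrays limits the precision.

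Probes were named from the platform annotation. Symbols were checked by Entrez identifier, and none changed. Of the probes, 23978 had 1 symbol and 1719 had none here. Where several probes of a gene were detected, the brightest stood for the gene. All members, all detected paralogs, chosen signalling genes, up to 6 called genes of each list and the 3 nearest genes of each detected member are named. Cyp4a12a is named beside Cyp4a12b. Members and lists were chosen with earlier results of these data known. Alternatives covered normalisation, background, the second table, detection filters, array weights, a replicate block, other tests and variance priors, the probe rule, a residual component and leaving out each array. The array chip could not be used as a block, since the columns do not give it.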

Additional observations from a re-analysis of the deposited data

Results flagged for a closer look

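A signal appeared in a probe that the comparisons did not use. Hao2, a peroxisomal hydroxyacid oxidase gene of female pattern, failed the detection filter, yet its probe was detected in 12 SA_15% livers against 1 Ctrl liver. Its log2 signal was 5.91 ± 0.318 in Ctrl and 6.35 ± 0.303 in SA_15% livers (SD, n = 15 each). Tested without the filter, the difference was 0.44 (standard error 0.104, limma adjusted p = 0.00245). The probe was picked out by its detection counts, which come from the same signals, so this p-value is descriptive only. Ctrl values are at background, so the size of the difference depends on the background.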

How the results depend on the processing

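The decreases of Cyp2d9 (-1.17 to -1.02; -1.08 to -0.98 on leaving out each liver) and Selenbp2 (-0.37 to -0.25; -0.29 to -0.22) and the increase of Cyp2b13 (1.08 to 1.23; 1.06 to 1.28) kept direction and call under every alternative run. Elovl3 passed with pooled error only (-0.18, adjusted p = 0.00714 in that fit; 0.00714 to 0.365 over the alternatives). With median centring the median over detected probes was -0.07 in place of -0.01, and it called 769 probes higher and 3066 lower, against 1942 and 2199; it left 1 female-pattern member, 1 signalling gene and 2 paralogs called higher. Called-higher counts were 1 for other female-pattern genes with detection on all 30 arrays, and for signalling genes 1 without a filter and 4 with pooled error. Without the 2 farthest mice, 1 pair was called in Ctrl, against 0 by Pearson's r with all mice. Leaving out each liver gave 2 to 3 male-pattern members lower, 2 to 3 other male-pattern genes higher, 4 to 5 other female-pattern genes lower, 1 to 4 signalling genes higher and 5 to 9 lower, and 4 to 6 paralogs higher and 8 to 11 lower; the other counts did not move. Signs turned with median centring for Cish (-0.01), Cyp2d12 (-0.0047), Cyp2d22 (-0.12), Cyp2d40 (-0.06) and Cyp2a12 (-0.02), with the mean of probes for Cyp2d26 (0.09), and on leaving out single livers for Cyp2d12 (-0.02 to 0.03) and Cyp2d22 (-0.01 to 0.04). With pooled error Cyp7a1, Elovl6, Slco1b2 and Cyp27a1 gained a call, and Cyp27a1 also with median centring, the mean of probes and the residual component. The cause was not tested. Leaving out a single liver ended the call of Elovl5 (SA_15% replicates 8 and 9), Cyp2d26 (Ctrl 1, 9, 11 and 13, SA_15% 1, 5, 10 and 15; -0.15 to -0.10) and Slco1a4 (Ctrl 9, 11, 12, 13 and 15, SA_15% 1, 3, 5, 6, 7, 10 and 15; -0.53 to -0.36), and gave a call to Jak2 (Ctrl 5, 7 and 11, SA_15% 6, 10 and 13), Stat5a (Ctrl 3), Slco1b2 (Ctrl 12), Cyp7a1 (Ctrl 15, SA_15% 11) and Cyp27a1 (Ctrl 1). Over 54 named genes, 2172 values kept direction and call, 35 lost the call, 26 gained it and 30 turned.

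The replicate numbers were not taken to pair the mice, since the labels give no shared litter or batch. Whether same-numbered mice shared a batch was not tested, and the permutation tests of the correlations took no account of replicate number. Deviations of same-numbered mice correlated at a median of 0.163 (-0.0696 to 0.391), 10 of 15 pairs were over 0.1 and 4 of 15 Ctrl arrays correlated best with their own number. With the replicate block 2129 probes were higher and 2330 lower, and no member's call changed; Jak2 (adjusted p = 0.031), Slco1b2 (0.0298) and Cyp27a1 (0.0282) gained a call and Cyp2d26 lost it (0.0502).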
